A study of Homo sapiens with 15 samples.

Results

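The EGF receptor family and its ligands were followed through 15 RNA-seq libraries. All are labelled MDA-MB231, an established human cell line from a triple-negative breast cancer. The 10 genes were the 4 receptors EGFR, ERBB2, ERBB3 and ERBB4, the EGF receptor ligands TGFA, AREG, EREG, HBEGF and BTC, and the neuregulin NRG1. They stand among 60651 genes in the table of the depletion dataset and 23792 in that of the overexpression dataset, and all 10 are listed in both. The family was selected on these measured values: TGFA lay higher in every KIF20A-depleted library than in every control library, so the differences between depleted and control libraries below are a description and carry no test.

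Receptors of this family are tyrosine kinases that dimerise when a ligand binds. EGFR binds TGFA, AREG, EREG, HBEGF and BTC, ERBB3 and ERBB4 bind neuregulins, and ERBB2 has no known ligand of its own and serves as a partner of the others. The ligands are made as membrane-anchored precursors that metalloproteases release, and the receptors signal through RAS and ERK and through PI3 kinase. In triple-negative breast cancer EGFR is often abundant, while ERBB2 is not amplified.

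KIF20A, the gene manipulated in the study, encodes a mitotic kinesin needed for the last steps of cell division. The depletion dataset held 3 libraries each of CTRL (genotype WT), SG1 and SG3 (both of genotype KIF20A knockdown), and the overexpression dataset 3 libraries each of EV (genotype WT) and KIF20A_OE (genotype KIF20A overexpression). The labels give neither the reagent behind SG1, SG3 and EV, nor whether a line is 1 clone, nor whether replicates are separate cultures, and the p-values below therefore reflect the spread among these libraries alone, part of which may be technical. Levels are counts per 1000000 with TMM-scaled library sizes (CPM) in the depletion dataset and fragments per 1000000 (FPM) in the overexpression dataset, and the datasets were scaled separately.

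Library totals were 40.9 to 51 M counts (M for 1000000) in the depletion dataset and 16 to 22.2 M fragments in the overexpression dataset. KIF20A itself lay at 154 to 171 CPM in CTRL, 91.5 to 147 in SG1 and 60.8 to 86.3 in SG3, and at 101 to 143 FPM in EV and 269 to 1348.5 in the libraries labelled KIF20A_OE. The depletion libraries did not separate by group on the first principal component (23.4% of the variance): SG3 replicate 1 scored 32.1 and the other SG3 libraries -33.4 and -30.0. Of 8 genes known to be high in MDA-MB-231 cells (VIM, CD44, ANXA1, CAV1, AXL, MSN, S100A4 and ZEB1), all 8 were lower in every library labelled KIF20A_OE than in every EV library, as were 25.2% of the 15265 genes tested there. Their summed level was 6105 to 7428 CPM over the depletion libraries, 7392 to 9138 FPM in EV and 658 to 1149 in the libraries labelled KIF20A_OE, where CD44 averaged 0.557 FPM (642 in EV) and AXL 0.771 (962 in EV). CDKN2A, CDKN2B and MTAP, neighbours in a chromosome 9 region chosen after its values were seen, had no count in any CTRL, SG1, SG3 or EV library and averaged 322, 13.6 and 23.3 FPM in the libraries labelled KIF20A_OE. These 3 libraries therefore go against the label MDA-MB231, and in each of their comparisons with EV an overexpression of KIF20A and a difference in cell identity cannot be told apart.

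Of the genes, 3 ligands form a cluster on chromosome 4 of GRCh38. EGFR (ENSG00000146648) spans chr7:55019021-55211628, ERBB2 (ENSG00000141736) chr17:39687914-39730426 and ERBB3 (ENSG00000065361) chr12:56076799-56103505, all on the plus strand. ERBB4 (ENSG00000178568) spans chr2:211375717-212538841 and TGFA (ENSG00000163235) chr2:70447280-70554193, both on the minus strand. EREG (ENSG00000124882, chr4:74365143-74388751, plus strand), AREG (ENSG00000109321, chr4:74445134-74455009, plus strand) and BTC (ENSG00000174808, chr4:74744759-74794686, minus strand) follow each other on chromosome 4. HBEGF (ENSG00000113070) lies at chr5:140332843-140346631 on the minus strand. Values count each gene as a whole. Whether counting used strand is not given in the sources used, and exons of ERBB2 overlap 571 bases of MIEN1 and 194 of PGAP3 on the other strand, those of EGFR 186 bases of EGFR-AS1.

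Promoters are shown for EGFR and for the ligands AREG, EREG and HBEGF, 4 of the members that fell between EV and the libraries labelled KIF20A_OE (below). The windows printed hold at most 28 bases of the gene's own exons. RefSeq lists a second EGFR start, whose window holds 116 such bases and is not printed. Those of TGFA, ERBB2, ERBB4 and BTC are left out for the same reason. Each is the RefSeq window (GRCh38.p14) of the 250 bases before the transcription start, read 5′ to 3′ along the gene, and capitals mark motif matches on either strand. The windows are chr7:55018767-55019016 (plus) for the first EGFR start, chr4:74444886-74445135 (plus) for AREG, chr4:74364895-74365144 (plus) for EREG and chr5:140346604-140346853 (minus) for HBEGF.
EGFR: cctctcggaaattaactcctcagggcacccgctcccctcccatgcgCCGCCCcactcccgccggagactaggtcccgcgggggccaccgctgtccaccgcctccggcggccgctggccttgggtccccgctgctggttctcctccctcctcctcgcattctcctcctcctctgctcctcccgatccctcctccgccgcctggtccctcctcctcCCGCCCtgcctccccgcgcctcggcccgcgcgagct
AREG: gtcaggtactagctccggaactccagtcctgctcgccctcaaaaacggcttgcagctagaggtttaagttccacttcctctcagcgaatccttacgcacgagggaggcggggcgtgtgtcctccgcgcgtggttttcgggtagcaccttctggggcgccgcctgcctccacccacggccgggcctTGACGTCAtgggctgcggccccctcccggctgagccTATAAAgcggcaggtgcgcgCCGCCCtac
EREG: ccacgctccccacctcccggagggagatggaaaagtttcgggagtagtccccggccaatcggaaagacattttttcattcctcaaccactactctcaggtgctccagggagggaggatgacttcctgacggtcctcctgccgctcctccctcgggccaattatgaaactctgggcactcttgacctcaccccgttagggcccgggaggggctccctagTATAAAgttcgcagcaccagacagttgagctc
HBEGF: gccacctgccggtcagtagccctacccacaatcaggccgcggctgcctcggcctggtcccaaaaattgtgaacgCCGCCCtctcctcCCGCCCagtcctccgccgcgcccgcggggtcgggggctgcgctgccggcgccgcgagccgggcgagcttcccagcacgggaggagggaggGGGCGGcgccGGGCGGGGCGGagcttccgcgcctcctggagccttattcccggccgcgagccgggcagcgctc

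The motifs searched were the GC box GGGCGG (present in 42.6% of 35116 RefSeq promoter windows of that length), the TATA box TATAAA (10.7%), the cyclic AMP response element TGACGTCA (1.65%) and the AP-1 site TGANTCA (6.57%). The printed EGFR and HBEGF windows held 2 and 5 GC boxes, 2 of those in HBEGF sharing a base, and neither held a TATA box. AREG and EREG, neighbours on chromosome 4, each held a TATA box, from 29 and 32 bases before the start, and AREG alone of the 4 held a cyclic AMP response element, from 65 bases before the start. AREG also held 1 GC box, and none of the 4 printed windows held the AP-1 letters. The window of the second EGFR start (chr7:55109589-55109838, 38.8% GC) differed, with 2 TATA boxes, from 146 and 36 bases before that start, and 2 AP-1 matches, from 232 and 136 bases before it. Among the printed windows the GC share was 73.6% for EGFR, 76.4% for HBEGF, 65.2% for AREG and 58.0% for EREG, against a median of 58.0% over all promoter windows. These matches describe the letters of the windows and show no binding.

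Per kilobase of exon (CPM per kb), HBEGF, AREG and EGFR were the most abundant of the family in CTRL, at 48.5 ± 3.46, 41.2 ± 10.5 and 32.1 ± 2.56 (SD, n = 3). The libraries of HBEGF and AREG overlapped, as did those of AREG and EGFR. TGFA followed at 20.3 ± 0.73 CPM per kb, below every EGFR value and above every NRG1 value. NRG1 (11.9 ± 1.36) and ERBB2 (11.6 ± 2.14) overlapped, as did ERBB2 and EREG (8.37 ± 1.62). BTC, at 1.19 ± 0.19, and ERBB3, at 0.94 ± 0.24, formed an overlapping pair below them, and ERBB4 was near 0. With the length of the longest transcript in place of all exons, ERBB2 (24.2 CPM per kb), TGFA (23.4) and NRG1 (22.7) came to lie close to each other. In EV the order on the FPM per kb scale again had EGFR (40.8 ± 7.0), HBEGF (39.9 ± 5.94) and AREG (27.5 ± 8.16) at the top, followed by TGFA (14.3 ± 2.90).

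Among the receptors of the depletion dataset, EGFR lay at 415, 424 and 365 CPM in CTRL, at 375, 425 and 463 in SG1 and at 549, 389 and 383 in SG3. SG3 replicate 1 was the highest library, and the 3 groups overlapped. Its log2 fold change against CTRL was 0.07 ± 0.16 (SE) in SG1 and 0.13 ± 0.16 in SG3, the latter -0.03 without SG3 replicate 1. ERBB2, the partner receptor, lay at 125, 138 and 95.3 CPM in CTRL, at 104, 94.5 and 87.5 in SG1 and at 93.4, 135 and 126 in SG3. Its SG1 libraries were mostly below CTRL but overlapped it, with a log2 fold change of -0.33 ± 0.17, and SG3 gave -0.02 ± 0.17. Libraries with positive scores on the first principal component (CTRL replicate 3, SG3 replicate 1 and all of SG1) lay at 87.5 to 104 CPM. The others lay at 125 to 138, and the part of this split in the ERBB2 differences was not tested.

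ERBB3, a neuregulin receptor with a weak kinase, lay at 7.30, 11 and 7.19 CPM in CTRL, at 7.02, 6.92 and 6.06 in SG1 and at 6.19, 9.79 and 6.27 in SG3. All SG1 libraries were below all CTRL libraries, by a narrow gap, and SG3 overlapped both. The log2 fold changes were -0.35 ± 0.23 for SG1 and -0.19 ± 0.23 for SG3. ERBB4, the other neuregulin receptor, had 8 counts in CTRL replicate 3 and 0 in the other 8 libraries, where 3 counts would equal 0.0571 to 0.0723 CPM. It was the member that did not pass the filter on low counts, so 9 of the 10 genes were fitted.

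TGFA lay at 104, 97.2 and 101 CPM in CTRL, at 152, 134 and 150 in SG1 and at 144, 135 and 133 in SG3. The 6 depleted libraries were all above the 3 controls, which is the pattern the family was chosen for, and SG1 and SG3 overlapped each other. Its log2 fold change was 0.53 ± 0.12 in SG1 (1.44-fold), 0.45 ± 0.12 in SG3 (1.36-fold) and 0.49 ± 0.11 for the mean of the groups. Both comparisons use the same CTRL libraries. The nearest values across the gap were 104 CPM in CTRL replicate 1 and 133 CPM in SG3 replicate 3. Leaving out each library in turn gave 0.48 to 0.58 for SG1 and 0.44 to 0.47 for SG3, in a direction that the choice of the family had set.

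No other member was separate from CTRL in all 6 depleted libraries, and over all 16786 genes tested 0.536% lay higher and 0.441% lower in that way. Against CTRL, SG1 had 4.96% of genes without overlap on the higher side and 7.21% on the lower, and SG3 2.28% and 2.38%. No gene passed an adjusted p of 0.05 in edgeR's quasi-likelihood test (0.0% called, either direction), with 770 genes for SG1, 200 for SG3 and 295 for the mean at an unadjusted p under 0.05, and 3, 4 and 5 genes called by DESeq2. The genes of the pathway lists described below (shedding, adaptors, feedback and ERK targets) accordingly had 0 calls in these comparisons. The rule for choosing the family used these contrasts, so nothing is read from these shares.

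AREG, a lower-affinity EGFR ligand, lay at 63.0, 87.2 and 53.4 CPM in CTRL, at 81.5, 67.4 and 87.7 in SG1 and at 79.8, 60.5 and 59.1 in SG3. CTRL replicate 2 was nearly as high as the highest depleted library, and the groups overlapped. Log2 fold changes were 0.22 ± 0.19 in SG1 and -0.03 ± 0.19 in SG3. EREG, which binds EGFR and ERBB4, lay at 58.5, 42.4 and 42.6 CPM in CTRL, at 70.4, 56.9 and 87.3 in SG1 and at 44.8, 37.1 and 52.5 in SG3. SG1 was the highest group, overlapping CTRL only through CTRL replicate 1, and SG3 lay within or below the CTRL range. Its log2 fold change was 0.58 ± 0.19 in SG1 and -0.09 ± 0.19 in SG3.

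HBEGF, a heparin-binding ligand of EGFR and ERBB4, lay at 156, 135 and 148 CPM in CTRL, at 134, 113 and 182 in SG1 and at 137, 132 and 146 in SG3. The SG1 libraries spanned the whole range of the other groups. Log2 fold changes were -0.03 ± 0.16 and -0.08 ± 0.16. BTC, at 2.62 to 5.44 CPM over the 9 libraries, gave 0.30 ± 0.28 in SG1 and -0.02 ± 0.28 in SG3, with overlap. NRG1, the ligand of ERBB3 and ERBB4, lay at 124, 127 and 152 CPM in CTRL, at 117, 171 and 110 in SG1 and at 92.1, 118 and 131 in SG3. SG1 replicate 2 stood above the rest, and the groups overlapped, with log2 fold changes of -0.02 ± 0.18 and -0.24 ± 0.18.

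**Figure D1:**
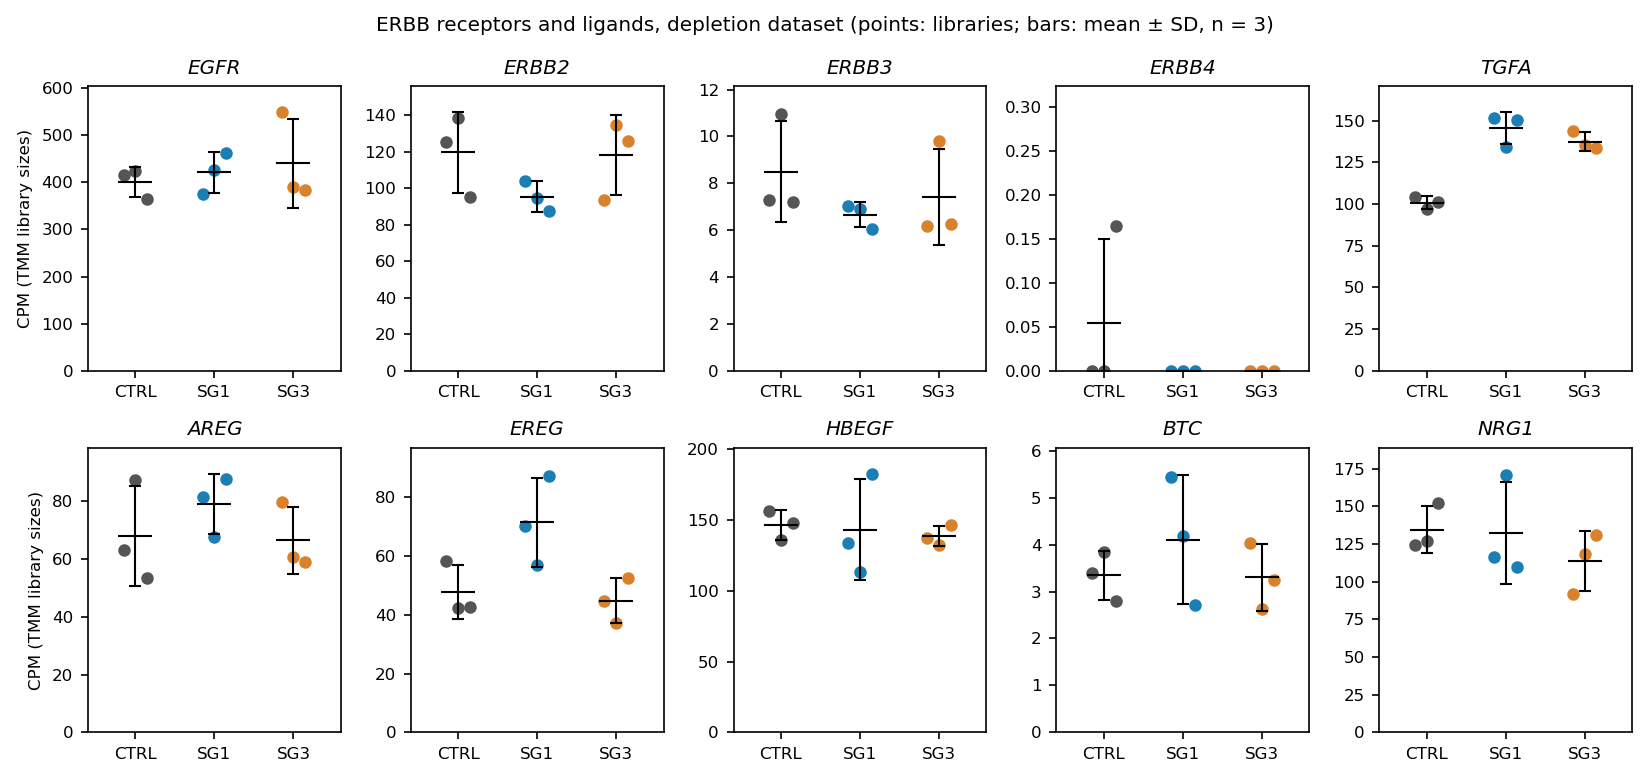
Level of each of the 10 genes (CPM, linear axis from 0) in the CTRL, SG1 and SG3 libraries, with points for libraries and bars for the mean ± SD of 3. TGFA at 133 to 152 CPM in the depleted libraries lies above its 97.2 to 104 in CTRL, while the other genes overlap between CTRL and at least 1 depleted group.

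SG1 against SG3 is a comparison the choice of genes did not use. None of the 9 members tested passed the threshold, nor did any of the 16786 genes (0.0% called by edgeR's quasi-likelihood test, 795 at an unadjusted p under 0.05, 5 called by DESeq2). TGFA differed between SG1 and SG3 by a log2 of 0.08 ± 0.12 (adjusted p = 0.911, edgeR), with overlapping libraries. EREG was the member with the largest difference: all 3 SG1 libraries lay above all 3 SG3 libraries, as did 6.26% of all genes (4.55% lay lower in that way), by a log2 of 0.68 ± 0.19 (adjusted p = 0.861, edgeR). That adjusted p ranged from 0.0481, without the filter on low counts, to 1 over the alternatives run. Of the other 7 members, ERBB2 had the most negative difference, -0.31 ± 0.17 (adjusted p = 0.861, edgeR), and BTC the most positive, 0.31 ± 0.28 (adjusted p = 0.861, edgeR). The ERBB2 libraries followed the split on the first principal component given above. The 9 members had a median log2 difference of 0.08, against 0.01 over all genes.

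The mitochondrially encoded mRNAs moved along with this comparison: all 13 had a higher fitted level in SG1 than in SG3, with a summed level of 15340 to 33800 CPM in SG1, 9614 to 19600 in SG3 and 9949 to 25100 in CTRL. The share of counts from all mitochondrially encoded genes was highest in SG1 replicate 3, at 3.82%, also the library with the most EREG. The part of these RNAs in the EREG difference was not tested.

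The rest of the pathway showed no call between SG1 and SG3 either. Among 26 ERK pathway target genes, 15 had a positive and 11 a negative difference with a median log2 of 0.06, and JUNB, an AP-1 subunit, had the smallest p. JUNB averaged 21.3 ± 0.28 CPM in SG1 and 34.6 ± 1.25 in SG3, without overlap (log2 -0.70 ± 0.18, adjusted p = 0.861, edgeR). In the 33 genes of receptor feedback and endocytosis the median was 0.09, and SOCS3, a suppressor of cytokine signalling, averaged 19.3 ± 3.79 CPM in SG1 and 30.5 ± 7.74 in SG3, with overlap. Of 16 genes of ligand shedding and trafficking (median -0.02), FRMD8, a partner of the sheddase complex, had the smallest p, at 50.6 ± 3.45 CPM in SG1 and 63.3 ± 0.67 in SG3. Among 32 adaptors and effectors (median 0.05), CRK, an SH2 and SH3 adaptor, lay at 18.6 ± 0.75 and 28.3 ± 7.96 CPM, with overlap. EGF, a further EGFR ligand, lay at 3.78 ± 0.57 and 3.61 ± 0.31 CPM, and the neuregulin NRG2 at 0.40 ± 0.065 and 0.44 ± 0.12.

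**Figure D2:**
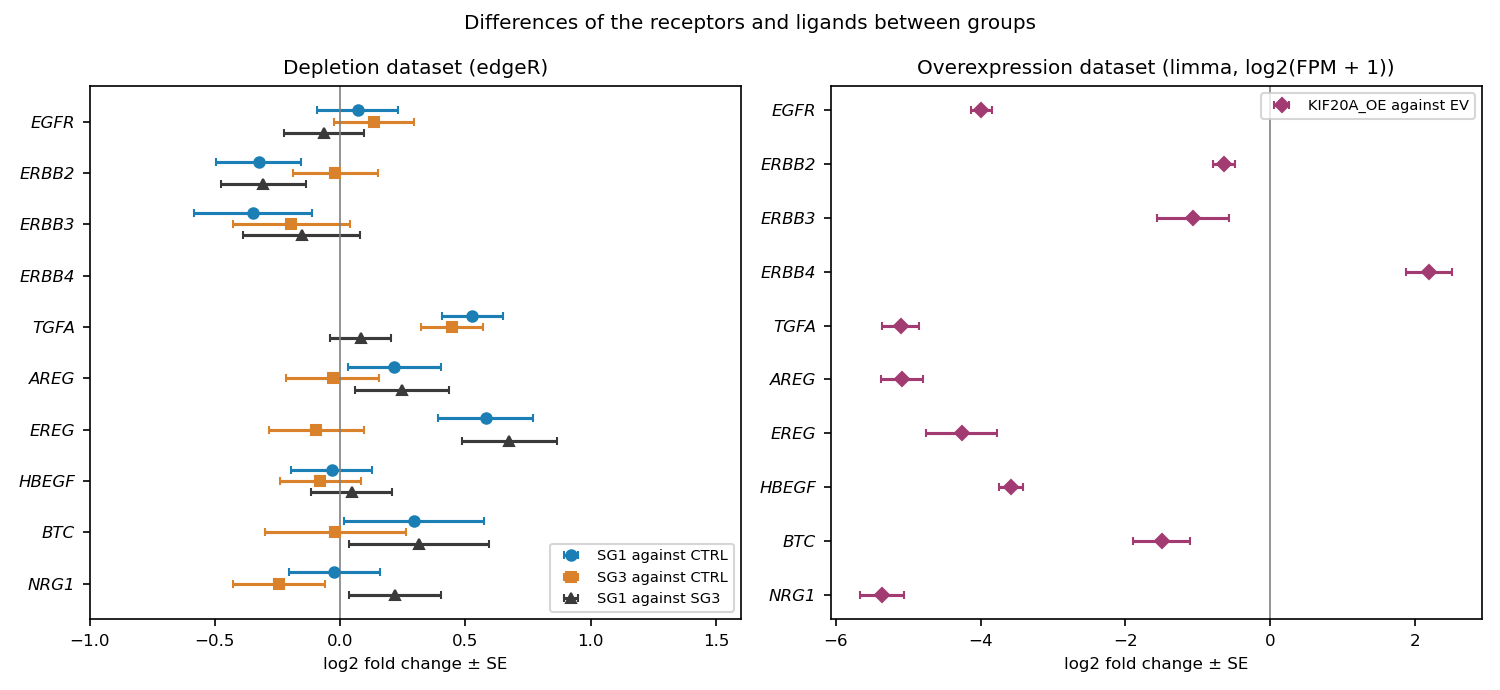
Log2 fold change with its standard error for each gene, on the left for SG1 against CTRL, SG3 against CTRL and SG1 against SG3 (ERBB4 was not fitted) and on the right for KIF20A_OE against EV on the log2(FPM + 1) scale. TGFA is at 0.53 and 0.45 in the depleted groups and at -5.11 on the right, where ERBB4 at 2.20 is the gene on the positive side.

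Between EV and the libraries labelled KIF20A_OE, 8 of the 10 members fell, 1 rose (ERBB4) and 1 (ERBB3) did not pass the threshold of limma on log2(FPM + 1). The background was large: 69.6% of 15265 genes were called, 46.2% higher and 23.4% lower, and 48.9% and 25.2% did not overlap. The median log2 difference of the 10 members was -3.78 and that of all genes 0.37. In edgeR with TMM scaling of the recovered fragments the median of all genes was 0.08, a shift of -0.30. The share of called genes that were higher went from 66.4% to 52.1%, while the direction of each of the 10 members stayed as given here. That fit covered 17078 genes and also differed in filter and log scale, and the part of the scaling in the shift was not tested. All 10 passed the filter of a mean of 1 FPM, but ERBB4, AREG, EREG, BTC and NRG1 averaged under 1 FPM in their lower group and passed only through the higher, so they had to differ and the counts and medians here are a description. For these 5 the adjusted p given below is from the fit of all 23792 listed genes, with no such filter. In that fit 9022 genes were called higher and 4232 lower. In bulk RNA, fewer cells of a type and less RNA per cell cannot be told apart.

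EGFR lay at 478, 611 and 446 FPM in EV and at 28.0, 33.2 and 32.0 in the libraries labelled KIF20A_OE. The groups were far apart, with little spread in the second. EGFR fell by 3.99 ± 0.15 on the log2 scale (SE, adjusted p = 1.46e-07, limma), and pooled fragments gave an EV level 16.4 times as high (95% interval 15.7 to 17.3, counting error only). ERBB2 lay at 78.8, 61.9 and 72.2 FPM in EV and at 48.8, 49.5 and 38.1 in the libraries labelled KIF20A_OE, without overlap. It fell by 0.63 ± 0.15 on the log2 scale (adjusted p = 0.00601, limma), the smallest change among the members called.

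ERBB3 lay at 14.2, 10.3 and 2.53 FPM in EV and at 2.32, 3.07 and 3.96 in the libraries labelled KIF20A_OE. EV replicate 3 lay within the range of the other group and set the overlap. The log2 fold change was -1.06 ± 0.50 (adjusted p = 0.0882, limma). Without EV replicate 3 it was -1.70 (adjusted p = 0.000686, limma), and edgeR on the recovered fragments gave -1.92 (adjusted p = 0.0202); over all alternatives the adjusted p ranged up to 0.255. ERBB4 had 2, 0 and 0 fragments in EV and 32, 80 and 125 in the libraries labelled KIF20A_OE, which are 2.0, 3.61 and 6.69 FPM. It was the only member that rose, by 2.20 on the log2 scale (adjusted p = 0.000243 over all listed genes, limma), and the pooled ratio was 122 with an interval of 33.5 to 1017.

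TGFA lay at 87.5, 63.9 and 61.4 FPM in EV and at 0.877, 0.631 and 1.87 in the libraries labelled KIF20A_OE, from 14, 14 and 35 fragments. It fell by 5.11 ± 0.26 on the log2 scale (adjusted p = 7.20e-07, limma), and the pooled EV level was 64.6 times as high (95% interval 50.4 to 84.3). AREG lay at 49.3, 30.4 and 56.3 FPM in EV and at 0.751, 0.0902 and 0.214 in the other group. In the libraries labelled KIF20A_OE, TGFA stayed above the level of 3 fragments (0.135 to 0.188 FPM) in all 3, and AREG was below it in replicate 2. AREG fell by 5.08 on the log2 scale (adjusted p = 5.51e-07 over all listed genes, limma), with a pooled EV level 141 times as high (95% interval 89.0 to 238).

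EREG lay at 20.6, 7.35 and 38.2 FPM in EV and had no fragment in any library labelled KIF20A_OE. The EV libraries spread widely but were all far above 0. Its pooled level was at least 132.7-fold lower, against a floor of 3 fragments per library, and limma gave an adjusted p of 0.000107 over all listed genes. HBEGF, at 103, 139 and 120 FPM in EV and 10.6, 7.93 and 9.05 in the libraries labelled KIF20A_OE, was the ligand that stayed best detected. It fell by 3.57 ± 0.17 on the log2 scale (adjusted p = 4.99e-07, limma), a pooled ratio of 13.3 (95% interval 12.2 to 14.6).

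BTC lay at 0.571, 1.98 and 4.41 FPM in EV and had 2, 0 and 0 fragments in the libraries labelled KIF20A_OE. It fell by 1.5 on the log2 scale (adjusted p = 0.0095 over all listed genes, limma), and the pooled ratio of 62.0 had an interval of 16.8 to 517. NRG1 lay at 72.9, 48.1 and 29.9 FPM in EV and at 0.125, 0.135 and 0.268 in the libraries labelled KIF20A_OE, where it had 2, 3 and 5 fragments. It fell by 5.36, more than any other member on the log2(FPM + 1) scale (adjusted p = 5.80e-07 over all listed genes, limma), with a pooled EV level 294 times as high (95% interval 160 to 613). As set out above, these differences and those of the MDA-MB-231 markers ran between the same libraries.

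**Figure D3:**
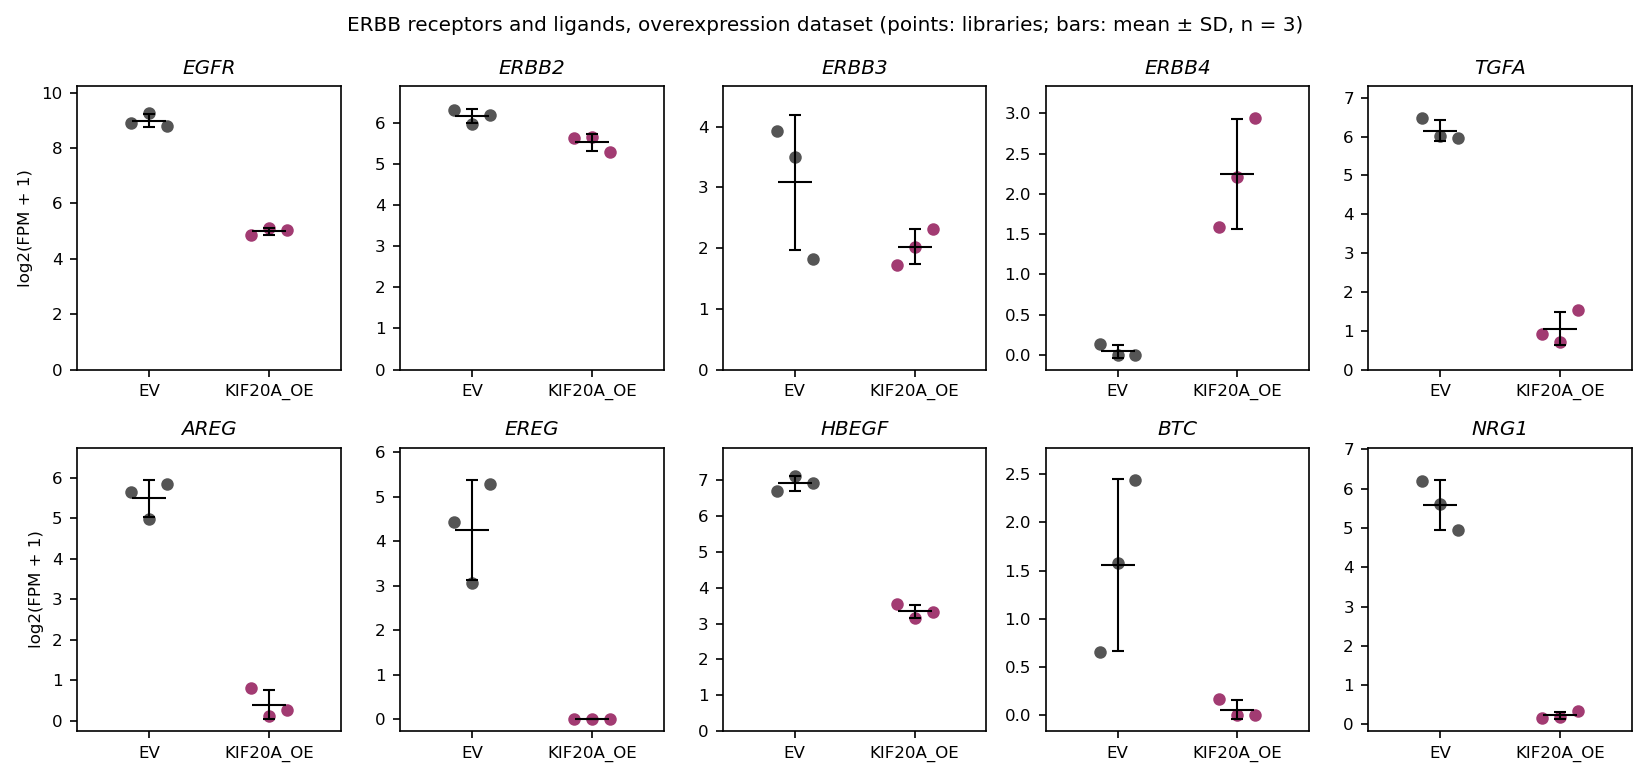
Level of each of the 10 genes as log2(FPM + 1) in the EV and KIF20A_OE libraries, with points for libraries and bars for the mean ± SD of 3. ERBB4 is higher in the libraries labelled KIF20A_OE, ERBB3 overlaps through EV replicate 3 at 2.53 FPM, and the other 8 genes are lower without overlap.

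In the order per kilobase, ERBB2 led in the libraries labelled KIF20A_OE at 4.40 ± 0.62 FPM per kb, above every HBEGF (3.04 ± 0.44) and EGFR (2.48 ± 0.22) value, the latter 2 overlapping. ERBB3 (0.34 ± 0.091), ERBB4 (0.32 ± 0.18), TGFA (0.23 ± 0.13) and AREG (0.21 ± 0.21) came next, each overlapping its neighbour in that order. NRG1, BTC and EREG were at or below 0.016 FPM per kb on average.

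The make-up of the 5 EGFR ligand transcripts, as shares of their summed level per kb, was led by HBEGF and AREG in 4 of the 5 groups. In CTRL, HBEGF made up 40.8 ± 4.62%, AREG 34.2 ± 6.77%, TGFA 17.1 ± 1.47% and EREG 7.0 ± 1.26% (SD, n = 3). TGFA made up 21.4 ± 2.19% in SG1 and 22.6 ± 0.97% in SG3. Its lowest depleted share, 18.9%, was above its highest CTRL share, 18.5%. The family was chosen on these TGFA values, so this gap is a description that the choice had set in part. The summed ligand level was 120 ± 8.35 CPM per kb in CTRL, 138 ± 21.6 in SG1 and 123 ± 8.59 in SG3, with overlap. In the libraries labelled KIF20A_OE the sum was 3.5 ± 0.69 FPM per kb, against 86.4 ± 7.71 in EV, and HBEGF made up 87.6 ± 5.19% of it, against 46.6 ± 9.89% in EV.

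**Figure D4:**
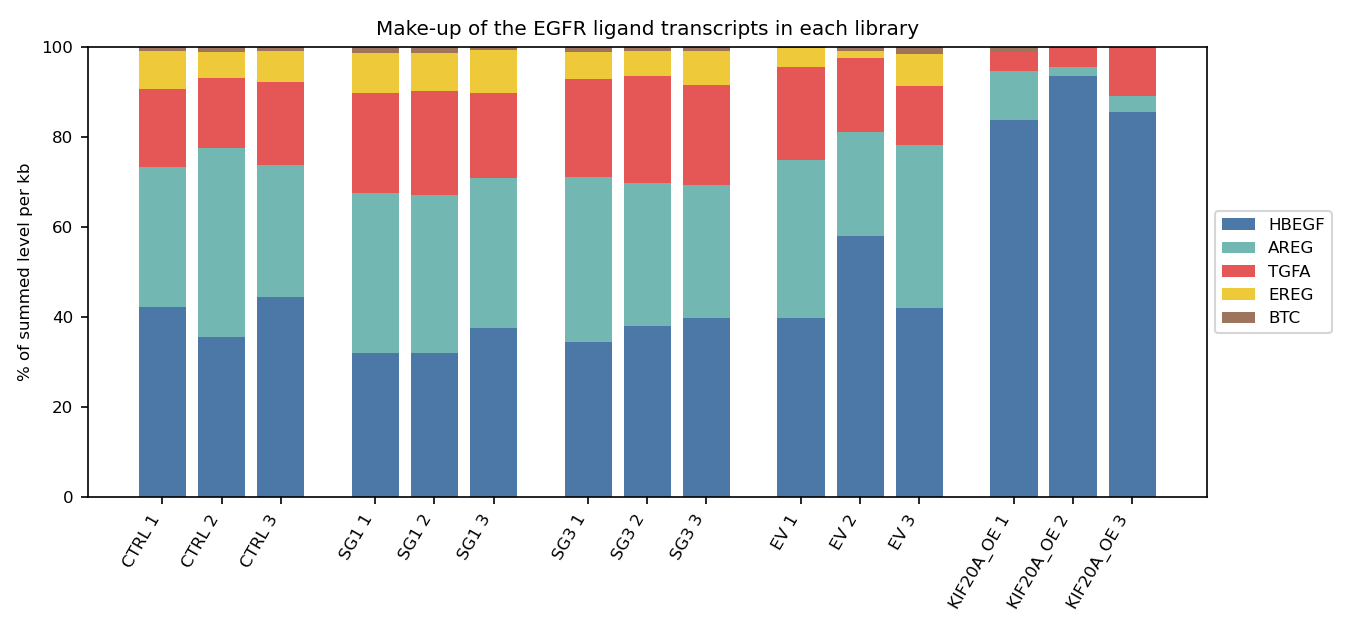
Share of each EGFR ligand in the summed ligand level per kb, in percent, with a stacked bar for each of the 15 libraries. TGFA, on whose values the family was chosen, takes 15.5 to 18.5% in CTRL and 18.9 to 23.7% in the depleted libraries. HBEGF takes 83.8 to 93.5% in the libraries labelled KIF20A_OE.

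Genes that act with the family were described from lists of pathway members, with EV and the libraries labelled KIF20A_OE compared by limma as before. Genes that average under 1 FPM in 1 group again passed the filter through the other, so list counts and medians are a description. Over all 15265 genes tested, 46.2% were called higher and 23.4% lower. Of 26 ERK pathway target genes, 23 fell, 0 rose and 3 did not pass, with a median log2 of -3.91 against 0.37 for all genes. DUSP6, an ERK phosphatase, averaged 419 ± 68.8 FPM in EV and 0.798 ± 0.26 in the libraries labelled KIF20A_OE. SPRY4, a feedback inhibitor of receptor signalling, went from 286 ± 39.9 to 0.427 ± 0.066 FPM, and PHLDA1 from 681 ± 51.7 to 3.87 ± 0.94. The adjusted p of PHLDA1 was 2.63e-08 in limma. DUSP6 and SPRY4 averaged under 1 FPM in the libraries labelled KIF20A_OE and passed the filter only through EV, so no p is given for them.

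Of 32 tested genes of receptor feedback and endocytosis, 18 fell, 7 rose and 7 did not pass (median -0.41). The shares over all genes were 23.4% lower and 46.2% higher (median 0.37). ERRFI1, which binds and inhibits the EGFR kinase, fell from 1818 ± 339 to 67.3 ± 21 FPM (log2 -4.76 ± 0.22, adjusted p = 4.91e-07, limma). SOCS3, SPRED1 and RASA1, the other genes with the largest falls, went from 61.0 to 5.55, from 141 to 19.0 and from 314 to 55.5 FPM. The largest rise was that of LRIG1, a negative regulator of ERBB receptors, from 14.4 ± 6.86 to 57.6 ± 15.3 FPM (log2 2.02 ± 0.37, adjusted p = 0.00141, limma), followed by its relative LRIG3, from 18.3 to 48.6, NF1, a RAS GTPase-activating protein, from 40.3 to 79.0, and VPS4A, from 44.0 to 75.7.

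Among 14 tested genes of ligand shedding and trafficking, 10 fell, 1 rose and 3 did not pass (median -1.15). The shares over all genes were 23.4% lower and 46.2% higher (median 0.37). ADAM19, a metalloprotease that can cleave neuregulins, fell from 261 ± 46.7 to 17.2 ± 3.05 FPM (adjusted p = 4.59e-07, limma), and TIMP3, an inhibitor of the sheddase ADAM17, from 715 ± 51.8 to 92.5 ± 38.8 (adjusted p = 1.30e-05, limma). ADAM9 fell from 352 to 106 FPM and RHBDF1, which escorts ADAM17, from 113 to 36.5. CNIH2 was the gene that rose, from 2.05 to 4.92 FPM.

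The 31 tested adaptors and effectors moved in both directions, 9 up, 9 down and 13 not past the threshold. Over all genes 46.2% were called higher and 23.4% lower. The median of the list was 0.03, against 0.37 for all genes. MAPK3, the kinase ERK1, rose from 60.7 to 158 FPM, CRKL from 154 to 361 and the adaptor GAB1 from 16.6 to 33.2. The kinase PTK6 fell from 36.1 to 0.728 FPM, GAB2 from 57.1 to 19.7, SOS2, a RAS exchange factor, from 114 to 40.3 and PIK3CA, a catalytic subunit of PI3 kinase, from 69.3 to 25.1. Apart from PTK6, which passed the filter only through EV, each of these had an adjusted p of 0.00218 or lower in limma. NRG4, an ERBB4 ligand, lay at 0.206 ± 0.025 FPM in EV and 1.93 ± 0.24 in the libraries labelled KIF20A_OE, and passed the filter only through the latter. NRG2, at 3.45 ± 3.56 and 6.46 ± 1.55 FPM, did not pass the test.

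**Figure D5:**
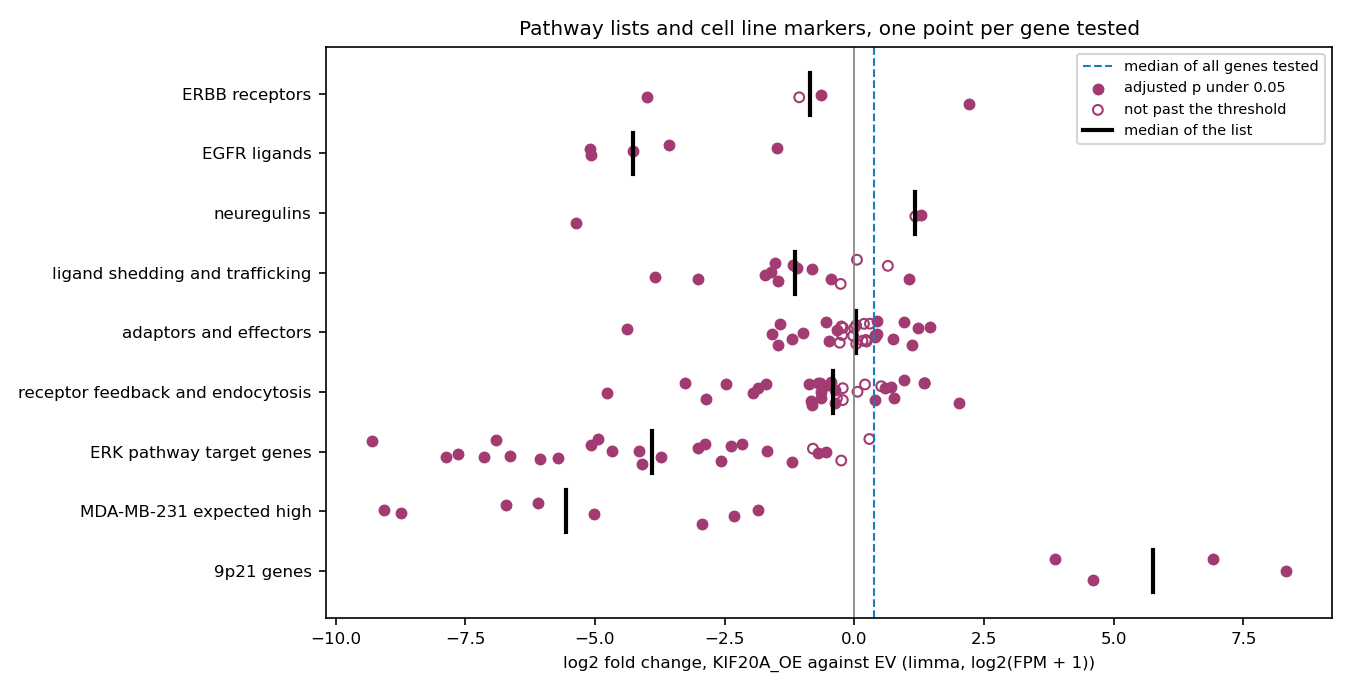
Log2 fold change of each tested gene for KIF20A_OE against EV, on the log2(FPM + 1) scale, in lists of the receptors, ligands and pathway, with the MDA-MB-231 marker genes and the 4 genes of the chromosome 9 region at the bottom. The EGFR ligands (median -4.26), the ERK target genes (-3.91) and the MDA-MB-231 markers (-5.56) have negative medians, with 25 of the 26 ERK target genes below 0, and the adaptors spread around 0.

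Genes whose pattern was most like that of TGFA were ranked by Pearson correlation as a description, since the libraries share groups and composition. Over the 9 depletion libraries they were MCF2L2 (0.963), POM121C (0.912), AC009220.3 (0.909), NBPF10 (0.905) and SPOCK1 (0.888), of which 1 to 3 stayed among the first 5 when a library was left out. Some were low: in CTRL, SG1 and SG3, AC009220.3 averaged 0.084, 0.225 and 0.201 CPM, near the level of 3 counts (0.0571 to 0.0723 CPM). MCF2L2 averaged 1.19, 1.915 and 1.67 CPM and SPOCK1 0.652, 1.245 and 1.243. No member of the family was close to TGFA there, EREG being nearest at 0.483 and ERBB3 farthest at -0.534. Over the 6 overexpression libraries, which fall into 2 clusters by group, the first 5 were IRS1, NSRP1, ARHGEF28, CLIP4 and FCHO2, and 0 to 2 of them stayed when a library was left out.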

How the data were processed

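RNA sequencing of 15 libraries labelled MDA-MB231 was analysed. The authors deposited the depletion dataset as raw counts per gene. Per the labels the overexpression values are FPKM. Each column of the deposited table, however, added up to 1000000 in whole multiples of 1 step, which makes the values FPM (CPM counted in fragments), with no gene length in them. The design had assumed FPKM, and its limma test was kept. Whole fragments were recovered for 100% of values (tolerance 0.001 fragments). Per the submitters' processing notes, the build was hg38 and the tools included STAR 2.7.3a, Trim Galore 0.6.4, limma 3.50.3 and featureCounts with Subread 1.6.3. What each did, the annotation and the strand setting are not given in the sources used.

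Counts were fitted in edgeR 4.0.16 by quasi-likelihood (R 4.3.3, TMM, default expression filter, 9 libraries together, 16786 genes). FPM were tested with limma 3.58.1 (trend, robust) on log2(FPM + 1), a scale that understates the change of low genes, for the 15265 genes whose mean over 6 libraries reached 1 FPM. Adjusted p-values are Benjamini-Hochberg values over all genes tested, with a threshold of 0.05. Ratios of pooled fragments carry exact 95% intervals, which, like the floor of 3 counts, cover counting error only, because reads lacking molecular identifiers need not be separate molecules. Lengths and coordinates came from GENCODE 29 (GRCh38), and promoters from RefSeq (GRCh38.p14), where 8 members were searched (all but NRG1 and ERBB3). Tests were tried on simulated data. Replicates differed by more than sampling noise (chi-square per degree of freedom 11.65 to 131.5) and were used separately. Of low counts (10 to 50), 62.9 to 68.0% per depletion library were even, and the cause was not tested.

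The members and gene lists were chosen with earlier results of these data known. Besides the members, named genes were up to 4 called genes per list and direction with the largest change, or the smallest p where none was called, and the 5 genes most like TGFA. Some genes this rule takes are not reported here. Alternatives were DESeq2 1.42.0, other filters, pseudocounts and lengths, edgeR on recovered fragments, the replicate block and leaving out each library. Leaving out libraries in the ranking by likeness to TGFA was chosen after seeing the data.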

Additional observations from a re-analysis of the deposited data

How the results depend on the processing

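The log2 fold change of TGFA against CTRL was 0.48 to 0.58 for SG1 and 0.44 to 0.48 for SG3 over the settings run. Its direction was set by the choice of the family, so these ranges only describe its size. Each member kept its direction for KIF20A_OE against EV, and the 9 called members stayed past the threshold wherever they were fitted (BTC was not fitted without EV replicate 3). The numbers of genes called were 3, 4, 5 and 5 with DESeq2 for SG1 against CTRL, SG3 against CTRL, their mean against CTRL and SG1 against SG3, and 91, 8, 20 and 77 without the filter on low counts. Leaving out a library gave 0 to 1 genes for SG1 against CTRL (1 without SG1 replicate 2), 0 to 2 for the mean (2 without SG1 replicate 2) and 0 to 5 for SG1 against SG3 (5 without SG3 replicate 1), and the cause was not tested. For SG1 against SG3 it turned the direction of 4 members that were not called, with log2 ranges of -0.16 to 0.095 for EGFR, -0.30 to 0.10 for ERBB3, -0.16 to 0.16 for HBEGF and -0.036 to 0.34 for NRG1. The longest transcript as length, shorter than all exons for these genes, gave levels per kb in CTRL and EV of 40.9 and 52.1 for EGFR, 24.2 and 14.4 for ERBB2, 54.7 and 36.6 for AREG, 61.4 and 50.5 for HBEGF and 22.7 and 8.48 for NRG1, and in CTRL of 1.43 for ERBB3, 23.4 for TGFA and 10.4 for EREG. Of the 5 genes most like TGFA, 1 to 3 stayed in the depletion and 0 to 2 in the overexpression dataset when a library was left out. Same-numbered libraries correlated in their deviations from the group means by -0.12 to 0.18 (depletion) and 0.014 to 0.058 (overexpression), so the numbers were not taken as pairs. Each overexpression library correlated best with its own number, a hint from the data and not the design, while the depletion libraries did not all do so. The replicate block called 0 genes in each depletion comparison and 10530 for KIF20A_OE against EV, against 10621 without it. Precision is limited by depth for ERBB4 and BTC in the group where each is low, at 0 to 2 fragments per library, and for NRG1, AREG and EREG in the libraries labelled KIF20A_OE.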

Other observations

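Markers of other cell types were measured in the same libraries, and their part in the differences of the receptors and ligands was not tested. Over all genes tested for KIF20A_OE against EV, 46.2% were called higher and 23.4% lower. For KIF20A_OE against EV, of the tested fibroblast markers 3 rose and 2 fell (5 of 10 tested, summed level 83.5 to 107 FPM against 28.7 to 102 in EV), and of the leukocyte markers 1 rose and 1 fell (3 of 10 tested, 4.28 to 4.78 FPM against 5.95 to 10.2), with PTPRC, the defining leukocyte gene, at 0 in the libraries labelled KIF20A_OE. Of 10 tested luminal epithelial markers 2 rose and 5 fell (529 to 615 FPM against 1879 to 2232). Of 6 basal epithelial markers 2 rose and 2 fell (33.6 to 71.5 FPM against 89.6 to 116). Of 3 endothelial markers 2 fell (1.39 to 36.8 FPM against 18.4 to 31.8). The third, PECAM1, spanned 0.321 to 35.8 FPM in the libraries labelled KIF20A_OE (12.3 ± 20.4) and set the top of that range. Of 5 tested genes known to be low in MDA-MB-231 cells, CDH1 and FOXA1 rose, EPCAM fell and PGR and GATA3 did not pass; FOXA1 averaged 17.5 ± 1.48 FPM against 0.198 ± 0.14 in EV. KLHL9, the fourth gene of the chromosome 9 region, averaged 149 ± 7.26 FPM against 0.247 ± 0.13.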
